A study of Mus musculus with 4 samples.

Results

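Nuclear factor I and the gliogenic switch factors are 6 transcription factor genes, Nfia, Nfib, Nfic, Nfix, Zbtb20 and Sox9, chosen by symbol in GENCODE M21 from the 34866 Ensembl gene identifiers of the deposited table. All 6 were in the table and passed the filter on low counts, which kept 14050 genes. Messenger RNA levels came from RNA sequencing of cultured neural stem or progenitor cells (NSPCs) taken from the dorsal telencephalon of wildtype E11.5 mouse embryos, grown as floating spheres with basic fibroblast growth factor for 5 days. The shControl group (2 libraries) received 1 lentiviral vector, CS-EG-shControl, at a multiplicity of infection of 30. The group named sh3F (2 libraries) received 3 vectors at 10 each: pCS-EG-shPhf21b against Phf21b, pLV-EG-shZfp7 against Zfp7, and pLV-EG-shZfp57 against Zfp57. The number of vectors and part of the vector backbone differed between the groups together with the targets, and the labels name no separate cultures, litters or animals for the replicates. The p-values below are thus set by how far libraries of a group lie apart, and that distance may be technical.

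Nuclear factor I (NFI) proteins bind DNA as dimers through a conserved domain at the amino-terminal end and act as activators or repressors. In the embryonic cortex members of the family are made in radial glia, and Nfia and Nfib are needed for timely astrocyte formation. Sox9, an HMG-box factor, acts upstream of and together with Nfia, and Zbtb20, a BTB zinc-finger factor, promotes astrocyte formation with them. Members of the NFI family are also made by young neurons, so their level in a mixed culture is not that of one cell type.

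Library totals lay between 14694387 and 20779211 estimated counts, of which genes of mitochondrial DNA held 30.3% and 33.9% in shControl and 26.6% and 28.5% in sh3F. The 3 targeted genes lay below control without passing the test: Zfp57 at 75.6% of the control level (14.6 and 11.8 CPM, counts scaled to a common library size, in shControl, 10.7 and 9.32 in sh3F), Phf21b at 81.6% (7.25 and 7.36 against 5.49 and 6.45) and Zfp7 at 77.6% (1.67 and 2.25 against 1.97 and 0.977), with adjusted p-values of 0.341, 0.644 and 0.80 in edgeR's quasi-likelihood test. The dorsal telencephalic genes Emx1 and Lhx2 were present, at 5.91 and 40.0 CPM in shControl. Of 12 markers of other neural regions 9 averaged below 1 CPM over the 4 libraries, with Hoxa2 at 0 in every one. The other three, Dlx1, Dlx2 and Gsx2 of the ventral telencephalon, measured 35.6, 11.1 and 3.18 CPM in shControl and 28.1, 7.78 and 4.19 CPM in sh3F.

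The 4 NFI genes are paralogs, so the first question was whether their reads can be told apart. The coding stretch of 120 bases, within an exon, in which the other 3 were most like Nfia lies in exon 2 of each gene. It is shown as the closest coding match of the other NFI genes to Nfia. It spans chr4:97783142-97783261 (plus strand) for Nfia, chr4:82498590-82498709 (minus) for Nfib, chr10:81420619-81420738 (minus) for Nfic and chr8:84772136-84772255 (minus) for Nfix, in GRCm38, from the longest coding transcript of each gene in M21. Capitals mark bases that differ from Nfia.
Nfia: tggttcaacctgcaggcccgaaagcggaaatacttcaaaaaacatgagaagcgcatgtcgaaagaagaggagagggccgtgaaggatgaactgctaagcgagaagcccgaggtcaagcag
Nfib: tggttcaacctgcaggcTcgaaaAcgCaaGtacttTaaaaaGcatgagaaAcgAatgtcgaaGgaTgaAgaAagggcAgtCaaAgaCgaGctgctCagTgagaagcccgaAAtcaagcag
Nfic: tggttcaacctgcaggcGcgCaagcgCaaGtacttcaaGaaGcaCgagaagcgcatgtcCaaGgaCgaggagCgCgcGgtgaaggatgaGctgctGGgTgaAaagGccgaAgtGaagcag
Nfix: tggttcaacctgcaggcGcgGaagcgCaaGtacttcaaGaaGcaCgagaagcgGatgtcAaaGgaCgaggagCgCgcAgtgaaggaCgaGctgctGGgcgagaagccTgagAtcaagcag
Nfib, Nfic and Nfix were identical to Nfia at 82.5%, 82.5% and 83.3% of these bases, and the longest run shared with Nfia was 17 bases. Over all annotated transcripts, 0 stretches of 31 bases were shared between Nfia or Nfib and any other NFI gene, and 2 were shared between Nfic and Nfix. With any other gene on either strand, the shared portion was 0.502% of the 31-base stretches of Nfia, 0.386% for Nfib, 0.704% for Nfic, 1.65% for Nfix, 0.681% for Zbtb20 and 1.34% for Sox9. The exons of all 6 genes overlapped those of other annotated genes by at most 1.86% of their bases, the highest value being that of Nfix with G430095P16Rik on the opposite strand.

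None of the 6 genes passed the test between the groups, and the 95% interval of each spanned the control level. In edgeR's quasi-likelihood test 0 of 6 had an adjusted p under 0.05, against 1.37% of all tested genes, made up of 0.541% higher and 0.826% lower. An unadjusted p under 0.05 was found for 0 of 6, against 12% of all tested genes. DESeq2 and limma-voom also called 0. The log2 fold changes (sh3F over shControl) ran from -0.08 for Nfib to 0.32 for Nfic, with 4 above and 2 below 0 and a median of 0.10, beside a median of -0.01 over all tested genes. The libraries of the 2 groups did not overlap for 4 of the 6 genes, Nfia, Nfib, Nfic and Nfix, where 41.3% of all tested genes did not overlap.

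**Figure D1:**
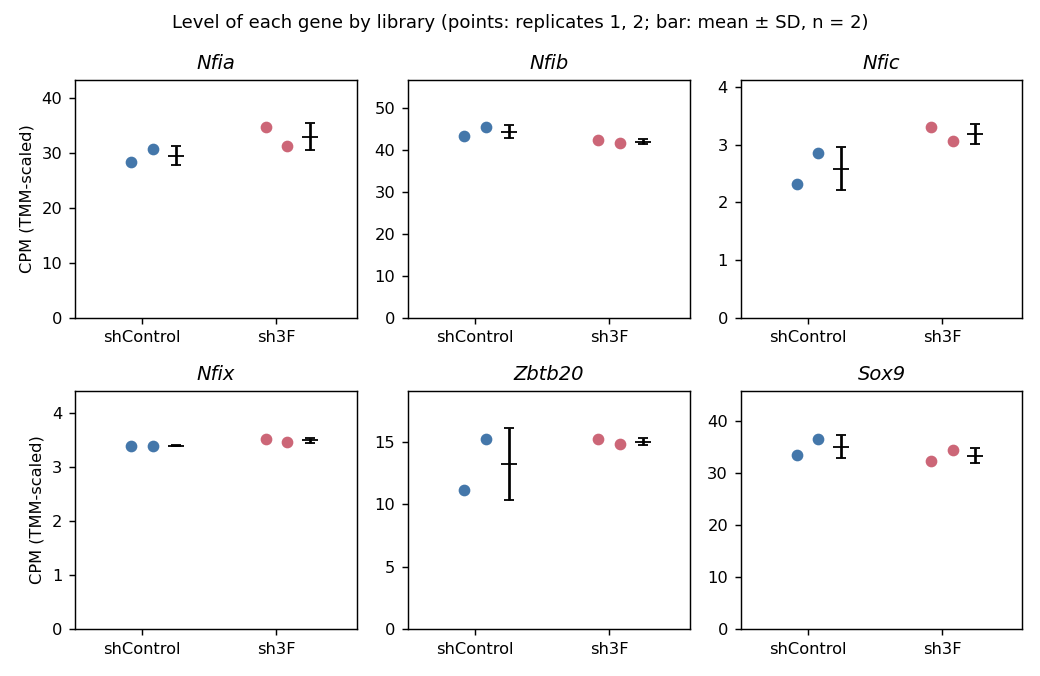
Level in CPM (vertical axis, linear from 0) of each gene in shControl and sh3F; points are the 2 libraries of a group and bars the mean ± SD. Group means differ little on every panel, and the widest spread within a group is that of Zbtb20 in shControl, at 11.1 and 15.2 CPM.

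Sox9 (ENSMUSG00000000567.5, chromosome 11, 112782224 to 112787760 in GRCm38, plus strand) measured 33.5 and 36.6 CPM in shControl and 32.2 and 34.3 CPM in sh3F. The groups overlapped, since the second sh3F library lay between the control libraries. The means were 35.04 ± 2.19 and 33.3 ± 1.47 CPM (SD, n = 2 each), which put sh3F at 95.1% of control with a 95% interval from 77.8% to 116%. On the log2 scale the difference was -0.07 with an SE of 0.15 (edgeR adjusted p = 0.904). It turned to 0.01 when libraries were scaled by size alone.

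Nfia (ENSMUSG00000028565.18, chromosome 4, 97772734 to 98118874, plus strand) measured 28.2 and 30.6 CPM in shControl and 34.6 and 31.2 CPM in sh3F. Both sh3F libraries lay above both controls, with a gap between the nearest libraries that was smaller than the distance between replicates. The level in sh3F was 112% of control, with an interval from 91.3% to 137% (log2 fold change 0.16 with an SE of 0.15, edgeR adjusted p = 0.733).

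Nfib (ENSMUSG00000008575.17, chromosome 4, 82290173 to 82705750, minus strand), which acts with Nfia in radial glia and is also made by deep-layer neurons, measured 43.2 and 45.3 CPM in shControl and 42.3 and 41.6 CPM in sh3F. Both sh3F libraries lay just below both controls. The level in sh3F was 94.8% of control, with an interval from 78.2% to 115% (log2 fold change -0.08 with an SE of 0.14, edgeR adjusted p = 0.891). Scaling by library size alone turned the log2 fold change to 0.01.

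Nfix (ENSMUSG00000001911.16, chromosome 8, 84699876 to 84800344, minus strand), which is linked to the later steps of progenitor differentiation, measured 3.39 and 3.38 CPM in shControl and 3.52 and 3.45 CPM in sh3F. These 4 values were the closest together of the 6 genes. They rested on 73.4, 45.2, 66.4 and 53.0 estimated counts, so the interval was wide, from 69.9% to 152% of control around 103% (log2 fold change 0.04 with an SE of 0.28, edgeR adjusted p = 0.975).

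Nfic (ENSMUSG00000055053.18, chromosome 10, 81396186 to 81455635, minus strand), known mainly for its part in tooth root formation, measured 2.32 and 2.85 CPM in shControl and 3.30 and 3.06 CPM in sh3F. It had the highest estimate of the 6 genes, 125% of control, and the widest interval, 81.2% to 191% (log2 fold change 0.32 with an SE of 0.31, edgeR adjusted p = 0.76). Its counts were 50.4 and 37.7 in shControl and 62.2 and 47.3 in sh3F. Without shControl replicate 1 the log2 fold change was 0.16, and without shControl replicate 2 it was 0.47.

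Zbtb20 (ENSMUSG00000022708.16, chromosome 16, 42875881 to 43642602, plus strand) measured 11.1 and 15.2 CPM in shControl and 15.2 and 14.8 CPM in sh3F. The control libraries stood apart from each other, and both sh3F libraries lay with the higher one. The level in sh3F was 115% of control, with an interval from 89.9% to 147%. The log2 fold change was 0.20 with an SE of 0.18 (edgeR adjusted p = 0.725). With shControl replicate 1 left out it was -0.03, and with shControl replicate 2 left out 0.44 (edgeR adjusted p = 0.976 and 0.196), so the estimate rests on which control library is used.

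**Figure D2:**
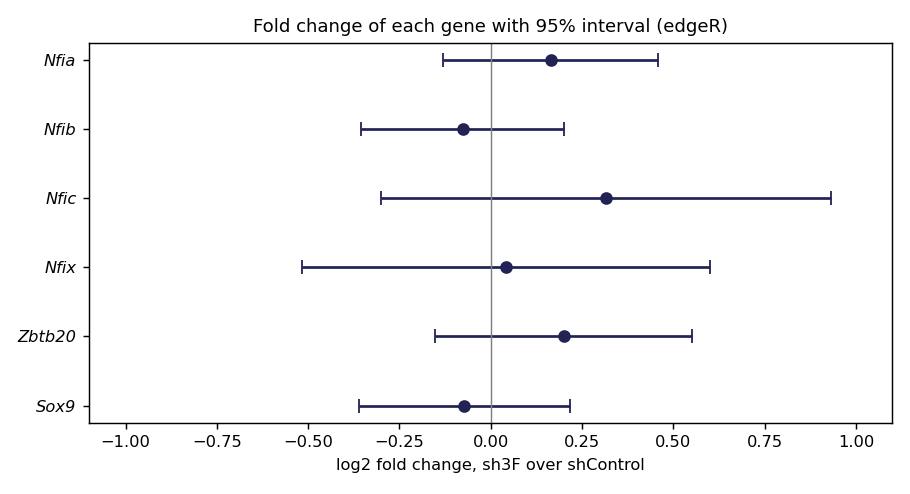
Log2 fold change of each gene, sh3F over shControl (horizontal axis), with its 95% interval from the edgeR fit. Every interval spans 0; that of Nfib, from -0.36 to 0.20, is the narrowest and that of Nfic, from -0.30 to 0.93, the widest.

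The precision of these estimates differed between the genes. For Sox9 and Nfib the intervals reached no further than 116% and 115% on the upper side and 77.8% and 78.2% on the lower side. For Nfic the interval held levels from 81.2% to 191% of control. In absolute size, the log2 fold change of Nfic was at least as large as that of 68.5% of all tested genes.

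Levels between the genes were compared per kilobase of the longest coding transcript (9.53 kb for Nfia, 9.12 for Nfib, 6.24 for Nfic, 5.48 for Nfix, 26.9 for Zbtb20 and 4.13 for Sox9). In shControl Sox9 stood highest, at 8.47 ± 0.530 CPM per kb, followed by Nfib at 4.85 ± 0.163 and Nfia at 3.09 ± 0.179 (SD, n = 2 each). Nfix at 0.618 ± 0.0013, Zbtb20 at 0.491 ± 0.108 and Nfic at 0.415 ± 0.0604 formed a lower group. Within that group Zbtb20 did not differ from Nfic beyond its spread, since its control libraries lay at 0.414 and 0.567 CPM per kb and those of Nfic at 0.372 and 0.458. The order was the same in sh3F, at 8.05, 4.60, 3.45, 0.636, 0.557 and 0.510 CPM per kb.

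Which length is used matters for Nfia and Nfib. Divided by all exonic bases of the gene (10.9 and 14.96 kb), Nfib measured 2.96 ± 0.0995 CPM per kb against 2.70 ± 0.157 for Nfia in shControl, and 2.80 ± 0.0333 against 3.02 ± 0.220 in sh3F, so that the order turned between the groups. On this scale Sox9 stood at the 83.9th percentile of tested genes, Nfib and Nfia at 69.5 and 69.4, and Nfix, Zbtb20 and Nfic at 23.9, 23.5 and 22.3. A gene's transcript length is taken from the annotation, and the transcripts in use in these cells were not measured here.

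The make-up of the NFI family does not depend on scaling between libraries, because it is a share of counts within each one. Nfib made up 56.0% and 55.1% of the summed NFI counts in shControl, against 50.5% and 52.4% in sh3F. Nfia made up 36.6% and 37.3% against 41.3% and 39.3%. In each case the groups did not overlap, with mean differences of -4.08 percentage points for Nfib and 3.38 points for Nfia. These genes together hold most of the summed counts, so the 2 differences are not separate observations. The share of Nfic was 3.03% and 3.45% against 3.96% and 3.88%, and that of Nfix, which overlapped, 4.42% and 4.13% against 4.23% and 4.35%. The ratio of Nfia to Nfib counts was 0.654 and 0.676 in shControl and 0.818 and 0.750 in sh3F. The difference in log2 ratio was 0.24, from -0.59 ± 0.0338 to -0.35 ± 0.0881 (SD, n = 2 each). No test of this ratio was run, and the smallest p that exact permutation allows with so few libraries is 0.33. The summed level of the family overlapped between the groups, at 77.1 and 82.2 CPM in shControl and 83.7 and 79.3 CPM in sh3F.

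**Figure D3:**
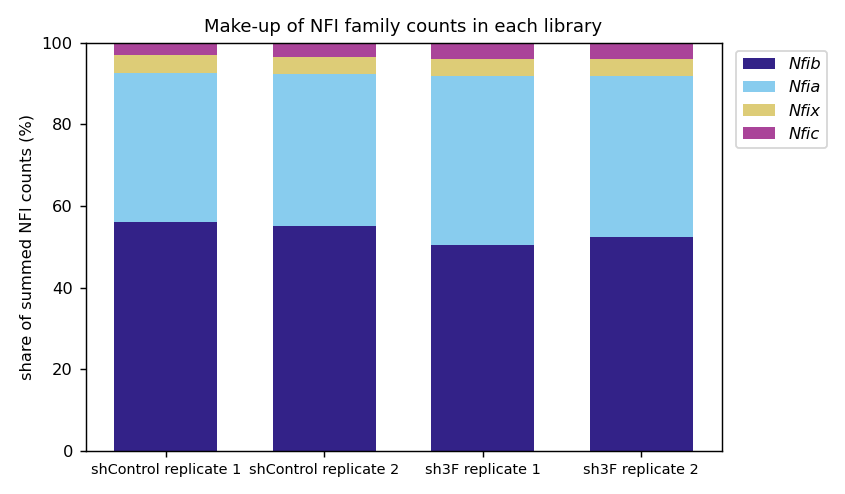
Share of the summed NFI counts (vertical axis, percent) held by each NFI gene in each library (bars). Nfib holds 55.1% or more in the shControl libraries and 52.4% or less in the sh3F libraries, and Nfia the larger part of the rest.

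Genes downstream of the switch were examined in a list of 20 glial genes and reported NFI or Sox9 targets, of which 17 were tested. Of these 2 fell, 0 rose and 15 did not pass, against 0.826% of all tested genes that fell. The median log2 fold change was -0.17, with 12 of 17 below 0. Sparcl1, a matrix protein of astroglia, measured 34.8 and 31.3 CPM in shControl and 19.7 and 20.5 CPM in sh3F, a log2 fold change of -0.72 ± 0.15 (SE; edgeR adjusted p = 0.00268). Tnc, which encodes tenascin C, measured 11.7 and 15.2 against 7.89 and 8.66 CPM (-0.69 ± 0.19 in log2, edgeR adjusted p = 0.0418). For both genes the 2 sh3F libraries lay below both controls. For Tnc the gap between the nearest libraries was smaller than the distance between its control libraries. The call on Sparcl1 held in 9 of 12 alternative settings and that on Tnc in 6. Both were lost when libraries were scaled by size alone and when either sh3F library was left out. Tnc was also lost without shControl replicate 2, with DESeq2 and with limma-voom.

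Some members of this list with a reported link to the factors gave values on both sides of control. Over the whole list 12 of the 17 tested genes lay below 0 and 5 above, so the genes named here do not show its balance. Fabp7, the brain fatty acid-binding protein gene whose promoter binds NFI, measured 22440 and 27555 CPM against 20101 and 22766 CPM, with overlapping groups (edgeR adjusted p = 0.715). Apcdd1, Mmd2 and Zcchc24, reported as joint targets of Sox9 and Nfia, had log2 fold changes of 0.43, -0.37 and -0.36 (edgeR adjusted p = 0.718, 0.333 and 0.466). Hes1, a Notch effector that Nfia represses, and Ezh2, a Polycomb methyltransferase that Nfib represses, had values of 0.17 and 0.05 (edgeR adjusted p = 0.852 and 0.937). Aqp4, the astrocyte water channel, had the lowest estimate of the list at 39.4% of control (34, 28, 10 and 14 counts in the order shControl then sh3F; edgeR adjusted p = 0.163). Gfap, the intermediate filament of mature astrocytes, had 0, 1, 0 and 1 counts, so it could not be compared. These 8 genes were picked out after their values were seen. So were Il6st, Stat3, Bmp4, Id4, the SoxE genes, Pou3f2, Csf1r and the regional markers named elsewhere in the text.

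**Figure D4:**
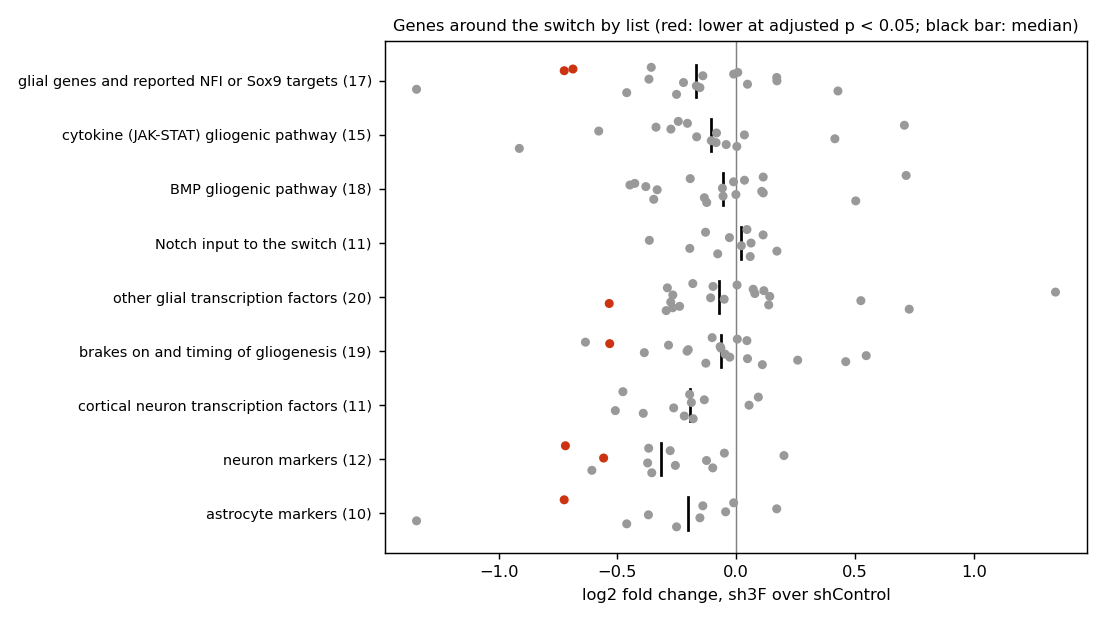
Log2 fold change, sh3F over shControl (horizontal axis), of each tested gene (points) in 9 lists (rows, number tested in brackets); red points fell at an adjusted p under 0.05 and black bars are medians. Red points appear in 5 of the lists, and neuron markers have the lowest median at -0.32.

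Cytokine, BMP and Notch signalling feed the switch, and 0 of their genes passed the test, against 1.37% of all tested genes. An unadjusted p under 0.05, counted below for each pathway, was found for 12% of all tested genes. Cytokines of the interleukin-6 family act through gp130 and JAK kinases on Stat3, which drives astrocyte genes. Among 15 tested genes of this pathway the median log2 fold change was -0.10, 2 had an unadjusted p under 0.05, and edgeR, DESeq2 and limma-voom called 0. Ptpn11, Crebbp and Ep300 had the highest means over the 4 libraries, at 14.8, 12.7 and 12.4 CPM in shControl and 12.1, 12.2 and 11.4 CPM in sh3F. Il6st, which encodes gp130, had a log2 fold change of 0.415 and Stat3 one of -0.20 (edgeR adjusted p = 0.484 and 0.78). Bone morphogenetic proteins act through Smad factors on the Id genes, which hold back neuronal differentiation. Among 18 tested genes the median was -0.06, 3 had an unadjusted p under 0.05, and edgeR, DESeq2 and limma-voom called 0. Id2, Id3 and Id1 measured 295, 140 and 78.3 CPM in shControl against 284, 108 and 62.2 CPM in sh3F. The groups did not overlap for 8 of the 18 genes, a share near the 41.3% of all tested genes that did not. Over all 18 genes the log2 fold changes ran from -0.45 to 0.71, with 6 above 0 and 12 below. Among the 8 that did not overlap, both sh3F libraries lay above both controls for Bmp4 (2.88 and 3.31 against 5.06 and 3.58 CPM). Its log2 fold change of 0.50 was not the highest of the list. Both lay below for Id1, Id2, Id3 and Id4. The log2 fold changes of these Id genes were -0.33, -0.06, -0.38 and -0.45 (edgeR adjusted p = 0.253, 0.921, 0.159 and 0.11). That of Id2 turned to 0.02 when libraries were scaled by size alone. Notch signalling, which induces Nfia in progenitors, had a median of 0.02 over 11 tested genes, 0 with an unadjusted p under 0.05 and 0 called by any of the 3 tools. Hes5, Dll1 and Notch1 measured 39.2, 20.4 and 14.6 CPM in shControl and 34.3, 21.1 and 14.2 CPM in sh3F.

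Among 20 other tested glial transcription factors 1 fell, 0 rose and 19 did not pass, against 0.826% of all tested genes that fell. The median log2 fold change was -0.07. The gene that fell was Hopx, a marker of radial glia, at 117 and 113 CPM in shControl and 77.0 and 81.4 CPM in sh3F (-0.53 ± 0.13 in log2, edgeR adjusted p = 0.0163). The call held in 9 of 12 alternatives, all but scaling by size alone and the 2 that leave out an sh3F library. The SoxE relatives of Sox9 had values near 0, with Sox8 at 8.90 against 8.95 CPM and Sox10 at 1.13 against 1.20 CPM. A further list of 19 tested genes joined brakes on gliogenesis with the nuclear receptor genes Nr2f1 and Nr2f2, which set its timing and whose loss is known to delay it. In it 1 fell, against 0.826% of all tested genes, 0 rose and 18 did not pass, with a median of -0.06. The gene that fell was not one of the brakes: Nr2f1 measured 49.6 and 48.2 CPM against 33.4 and 34.3 CPM (-0.53 ± 0.14 in log2, edgeR adjusted p = 0.0288), and held in 7 of 12 alternatives. It was lost with DESeq2, with the replicate block, with scaling by size alone and without either sh3F library.

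Zbtb20 holds down neuronal transcription factor genes in several settings, Pou3f2 among them. Of 11 tested genes of this kind 0 passed the test in edgeR, DESeq2 or limma-voom, and 9 had estimates below 0 (median -0.20). An unadjusted p under 0.05 was found for 2, against 12% of all tested genes. Pou3f2 measured 9.61 and 11.9 CPM in shControl and 11.6 and 10.6 CPM in sh3F, with overlapping groups. Pou3f3, Tbr1 and Cux1, which had the highest means over the 4 libraries, measured 37.0, 13.9 and 12.5 CPM in shControl and 32.5, 9.99 and 10.7 CPM in sh3F.

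The wider families of Sox9 and Zbtb20 were read the same way. Of 13 tested Sox genes 1 fell, against 0.826% of all tested genes, 0 rose and 12 did not pass (median -0.15). It was Sox4, a factor of young neurons and their precursors, from 146 and 156 CPM to 96.8 and 102 CPM (-0.60 ± 0.13 in log2, edgeR adjusted p = 0.00528). The call on Sox4 held in 9 of 12 alternatives and was lost in the same settings as that on Hopx. Of 37 tested Zbtb genes 0 passed the test in edgeR, DESeq2 or limma-voom, and 1 had an unadjusted p under 0.05 (12% of all tested genes did). Their median was -0.05, against 0.20 for Zbtb20, and 14 estimates lay above 0.

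Markers of other cells moved beside these genes, and their part in any value above was not tested. In bulk RNA fewer cells of a type and less RNA per cell cannot be told apart. Of 12 neuron markers 4 had an unadjusted p under 0.05, against 12% of all tested genes. After adjustment 2 fell, Tubb3 and Nsg2, and 10 did not pass, against 0.826% of all tested genes that fell. The calls held in 9 and 8 of 12 alternatives; both were lost with scaling by size alone and without either sh3F library, and that on Nsg2 also without shControl replicate 1. The summed level of the 12 neuron markers was 1057 to 1174 CPM in shControl and 867 to 906 CPM in sh3F, and their median log2 fold change was -0.32. Of 10 tested astrocyte markers 4 had an unadjusted p under 0.05. After adjustment 1 fell, Sparcl1, which is also in the list of glial genes and targets. The summed level was 252 to 260 against 204 to 208 CPM. Dorsal telencephalic genes (10 tested, 0 past the threshold in edgeR, DESeq2 or limma-voom, 3 with an unadjusted p under 0.05) had a median of -0.25, and those of other neural regions (5 of 12 tested, 0 past in the same tools, 2 unadjusted) one of 0.39. The latter rests on few genes and turned to -0.34 with a filter of 1 CPM in 2 libraries, -0.31 without sh3F replicate 1 and -0.08 without shControl replicate 1. Oligodendrocyte lineage, microglia, endothelial and mesenchymal markers had 0 of 9, 0 of 8, 0 of 3 and 0 of 9 tested genes past the threshold in the same 3 tools, and 1, 2, 0 and 0 with an unadjusted p under 0.05. Their summed levels overlapped between the groups, at 98.9 to 109, 30.7 to 36.5, 6.46 to 7.51 and 48.7 to 53.6 CPM over all 4 libraries. Of the 12 microglial markers 8 averaged below 1 CPM. Csf1r was at 0 in both shControl libraries, but 0 of these markers were at 0 in all 4 libraries. Red blood cell markers summed to 26.0 and 27.9 CPM in shControl and 40.6 and 38.1 CPM in sh3F. Of 5 tested, 1 was higher, Hbb-y, against 0.541% of all tested genes. That call held in 7 of 12 alternatives and was lost in the same settings as that on Nr2f1. Interferon-stimulated genes summed to 20.9 and 21.2 CPM against 98.2 and 98.0 CPM. Of 9 tested, 7 were higher, against 0.541% of all tested genes, 0 were lower and 2 did not pass.

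Neighbouring genes showed 0 calls. Within 100 kb of the 6 genes, a window chosen after the data had been examined, 67 genes are annotated and 23 were tested. Of these 0 passed the threshold in edgeR, DESeq2 or limma-voom, and 4 had an unadjusted p under 0.05, against 12% of all tested genes. All 4 had estimates below 0, and 3 were among the 10 tested neighbours of Nfic and 1 among the 11 of Nfix. The divergent gene E130114P18Rik, whose exons overlap Nfia by 4 bases on the opposite strand, measured 224 ± 12.2 CPM in shControl and 219 ± 26.4 CPM in sh3F (log2 fold change -0.03, edgeR adjusted p = 0.962). Around Zbtb20 and Sox9, 0 of the 13 and 3 annotated neighbours reached the tested set.

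The pattern of each gene over the 4 libraries was shared with many others. By the root mean square difference of centred log2 CPM (with 0.5 added), over the 7867 genes that averaged 5 CPM or more, the genes nearest to Nfia were Snx7 and Dnajc18, to Nfib Thoc6 and Pcid2, to Nfic Mrpl20 and Ak4, to Nfix Selenos and Jtb, to Zbtb20 Bicd1 and Cisd3, and to Sox9 Vamp8 and Nhsl1, at 0.0042 to 0.013. Between 43 (Zbtb20) and 311 (Nfix) genes lay within 0.05 of a member, so 4 libraries do not single out a partner.

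Across 12 alternative settings 0 calls were made on any of the 6 genes, and the lowest adjusted p was 0.196, for Zbtb20 without shControl replicate 2. Nfia, Nfic and Nfix kept an estimate above 0 in all 12. Nfib stayed below 0 in 11, Sox9 in 10, and Zbtb20 above 0 in 11.

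**Figure D5:**
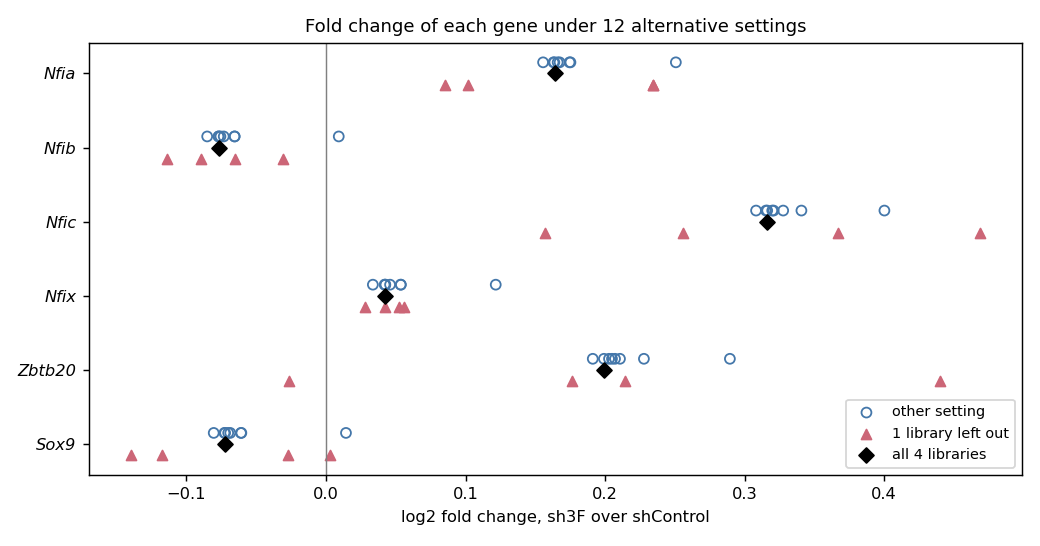
Log2 fold change of each gene, sh3F over shControl (horizontal axis), with all 4 libraries (black diamonds), with 1 library left out (red triangles) and under 8 other settings (open blue circles). Zbtb20 spans the widest range, from -0.03 to 0.44, and Nfix one from 0.03 to 0.12.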

How the data were processed

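The deposited values are estimated counts for each Ensembl gene, not normalized. The submitters' processing notes name Salmon and the builds GRCm38 and mm10; for the Salmon version, annotation release and strand setting nothing is given in the sources used here. Identifiers were matched without version to GENCODE M21 (34582 of 34866). After rounding, edgeR 4.0.16 (R 4.3.3) was run with TMM scaling, filterByExpr with a minimum count of 10, a robust quasi-likelihood fit, two-sided, Benjamini-Hochberg over 14050 genes, threshold 0.05. SE is the log2 fold change over the square root of F, and 95% intervals use the fit's t distribution. CPM is edgeR's normalised count on the TMM-scaled total. limma 3.58.1 and DESeq2 1.42.0 served as alternatives. The fit was also run on counts simulated from its own means and spread. Such counts cannot show whether the replicates here are technical. The squared difference between replicates of a group, averaged over tested genes, was 16.7 (shControl) and 6.86 (sh3F) times that of sampling noise. A few abundant genes can raise this mean, so it does not describe each gene. On this measure no replicate was counted as a duplicate. Members and lists were chosen with earlier results of these data known. Named genes were the 6 members, in each list the called genes (at most 4, lowest p first) or, with none called, the 3 of highest CPM, and the 2 nearest patterns of each member; others are said to be chosen later. Protein and promoter sequences were not used here. Some list genes are not reported here by name.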

Additional observations from a re-analysis of the deposited data

How the results depend on the processing

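With 2 libraries a group, precision is set by counts and replicate spread: Nfic and Nfix rest on 37.7 to 73.4 counts a library. Over all genes 76 rose and 116 fell. DESeq2 gave 30 and 39, and scaling by library size alone 77 and 28; leaving out 1 library gave 27 to 280 and 17 to 334. The 6 members were past the threshold in 0 of these fits. Library size alone moved the median of all genes from -0.01 to 0.07 and reversed the log2 fold changes of Nfib (0.0092) and Sox9 (0.014). Without shControl replicate 1 Zbtb20 was at -0.026, and without shControl replicate 2 Sox9 was at 0.0028; with 1 library left out the ranges were 0.09 to 0.23 for Nfia, -0.11 to -0.03 for Nfib, 0.16 to 0.47 for Nfic, 0.03 to 0.06 for Nfix, -0.03 to 0.44 for Zbtb20 and -0.14 to 0.0028 for Sox9. With library size alone the list medians were -0.082 (glial genes and targets), 0.027 (BMP), 0.10 (Notch), 0.015 (other glial factors), 0.019 (brakes and timing) and -0.11 (cortical neuron factors). With 1 library left out they ran from -0.25 to -0.087, -0.26 to -0.0064, -0.11 to -0.0046, -0.12 to 0.085, -0.10 to -0.025, -0.085 to 0.041 and -0.22 to -0.18 in the order glial, cytokine, BMP, Notch, other factors, brakes and neuron factors. The cause of these shifts was not tested. With 1 library left out the Nfib share difference ran from -5.04 to -3.12 points and that of Nfia from 2.40 to 4.37. Because the groups did not overlap, these signs could not change. Deviations of same-numbered libraries correlated at -0.03. With 2 libraries a group this cannot tell whether the numbers pair the samples, and the labels do not say. With the replicate number as a block 75 rose and 97 fell, and Nfia was at 0.16 and Zbtb20 at 0.21.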
